A study of Mus musculus with 9 samples.

Results

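The insulin-like growth factor (IGF) family was followed at the RNA level in a mouse ovarian tumor model: the ligands Igf1 and Igf2, the receptors Igf1r and Igf2r, and the binding proteins Igfbp2, Igfbp3, Igfbp4, Igfbp5, Igfbp6 and Igfbp7. These 10 genes were picked by name out of the 48230 genes of the deposited expression table. The rule itself uses no measured value, but it was set with earlier results of these data known. The tumor cells, called BeCon in the labels, were sequenced in 9 libraries. For 8 libraries they were taken from ascites of tumor-bearing B6 mice and had been sorted as viable CD45- MHCI+ cells. The mice had received vehicle control (4 libraries) or YKL-05-099 (4 libraries), which inhibits the salt-inducible kinases. The last library came from BeCon cells grown in vitro, without mouse or drug, and has no replicate. BeCon carries no further genotype in the labels, and dose, length of treatment and age of the mice are not given in the labels used here. The labels number the libraries of each treatment 1 to 4 but do not say that each is a separate mouse, so each p-value reflects only how far these libraries spread, which may be technical. Library names begin differently for vehicle and YKL-05-099, and any batch behind that difference cannot be told apart from treatment.

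IGF1 and IGF2 signal through the receptor tyrosine kinase IGF1R, which passes the signal through insulin receptor substrates to the PI3K and AKT kinases and so supports growth and survival. IGF2R has no kinase: it takes IGF2 and mannose 6-phosphate tagged enzymes to lysosomes. The binding proteins hold the ligands outside the cell and lengthen their life, and proteases that cut them free the ligand. In the ovary, the family is known for its part in follicle growth.

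Values are FPKM, which divide the fragments of a gene by its transcript length and by the mapped fragments of the library, so that levels can be set side by side between genes. Genes at 1 FPKM or more numbered 11421 to 11893 in a library. Mesothelial markers were at 1 FPKM or more for 8 of 8 genes in all mouse libraries, Wt1 stood between 373.4 and 564.8 FPKM over the 9 libraries and Krt8 between 44.3 and 71.6, while Epcam stayed at or under 0.624 and Cdh1 at or under 0.0511. The summed FPKM of 15 macrophage markers was 233.9 to 539.2 after vehicle, 30.9 to 101.4 after YKL-05-099 and 12.4 in culture, despite the CD45- sort of the mouse libraries. The 7 erythroid markers summed to 243.9 to 1487 FPKM after vehicle, 1.45 to 92.8 after YKL-05-099 and 0.188 in culture.

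The ascites cells held abundant binding protein RNA, less receptor RNA, Igf1 as the ligand at a measurable level, and almost no Igf2. By mean FPKM, both mouse groups had the order Igfbp6, Igfbp2, Igfbp4, Igfbp5, Igfbp7, Igf1, Igf1r and Igf2r, followed by Igf2 and Igfbp3 near 0. Igfbp4 and Igfbp5 changed places between libraries and their ranges overlapped in both mouse groups. Igf2 and Igfbp3 overlapped in the vehicle libraries, and the ranges of the other neighbours in this order did not overlap within either treatment. In the vehicle mean, Igfbp6 lay above 99.1% of the genes that reached an FPKM of 1, Igfbp2 above 97.8% and Igf1r above 39.8%.

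**Figure D1:**
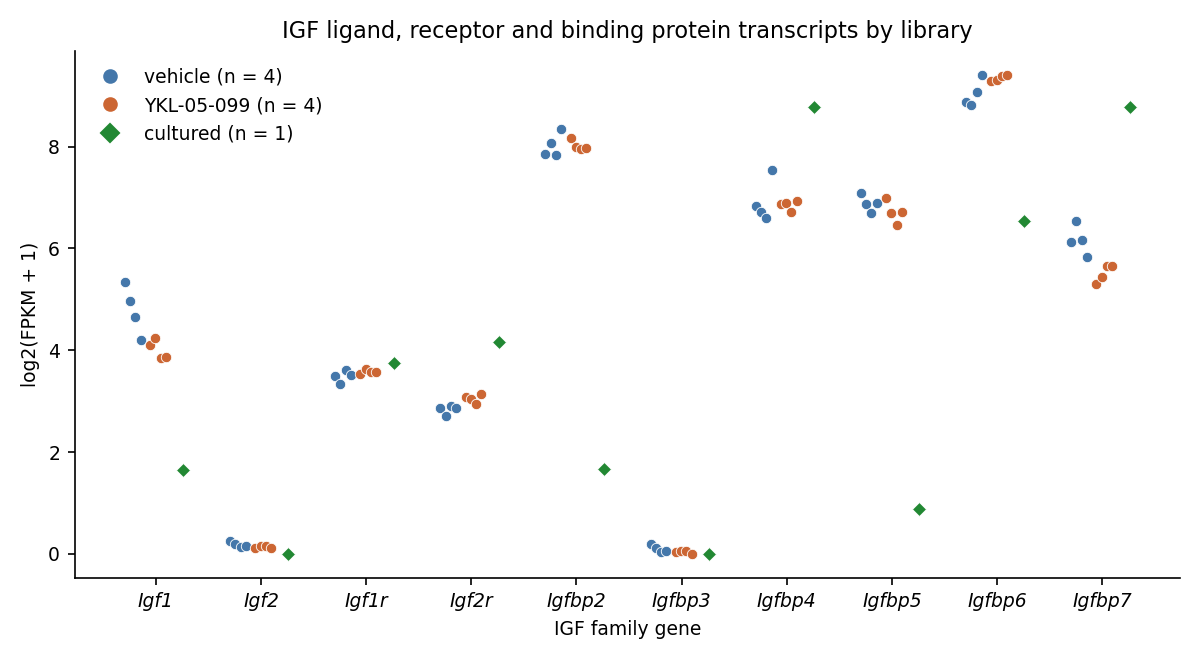
Level of each IGF family gene in each library, as log2(FPKM + 1), with 4 vehicle libraries (blue circles), 4 YKL-05-099 libraries (orange circles) and the 1 cultured library (green diamonds). In the mice Igfbp6 reached 451.5 to 680.6 FPKM and Igf2 at most 0.190, and in culture Igfbp2 and Igfbp5 were at 2.19 and 0.833 FPKM while Igfbp4 and Igfbp7 lay above every mouse library.

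Between treatments, tested with limma on log2(FPKM + 1) at an adjusted p under 0.05, Igf1 and Igfbp7 fell after YKL-05-099 and Igf2r rose. A gene was tested when 4 or more of the 8 mouse libraries held it at 1 FPKM or above. Of the 10 members 8 were tested: 1 was called higher, 2 lower and 5 were not called, and Igf2 and Igfbp3 were too low to enter. A large part of the transcriptome differed between the treatments: 43.2% of 11788 tested genes were called, 28.0% higher and 15.1% lower, and the 3 calls among 8 members are a share near that background. The split of all calls, 3304 higher against 1785 lower, became 2499 against 2470 after median-of-ratios scaling and 2513 against 2419 after quantile normalization. The median log2 fold change of the 8 tested members was -0.04, and that of all genes tested was 0.05. The vehicle and YKL-05-099 libraries did not overlap for 2 of the 8 members, Igf2r and Igfbp7, against 40.0% of all tested genes.

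**Figure D2:**
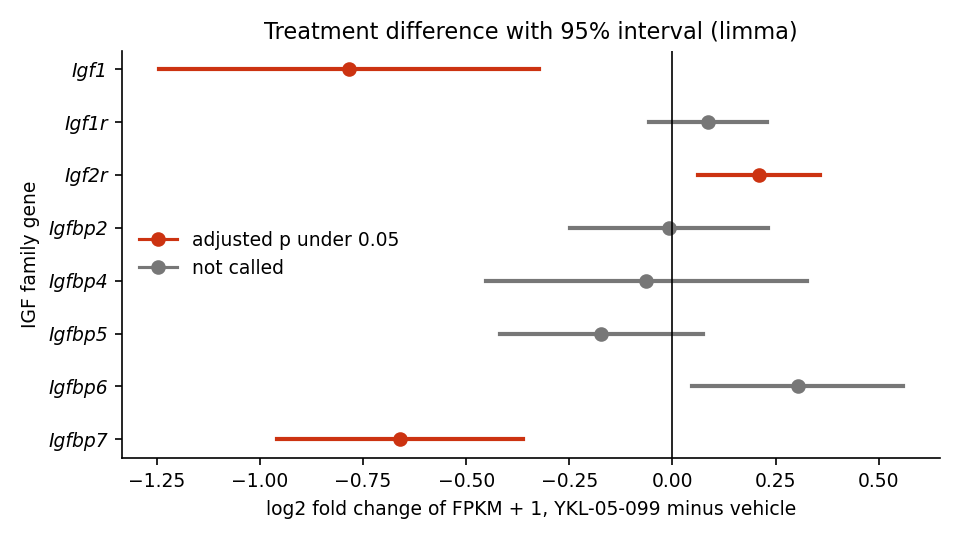
Difference between YKL-05-099 and vehicle (log2 of FPKM + 1, 4 libraries each) for the 8 tested members, with the 95% interval from limma. The intervals of Igf1 (-1.24 to -0.32), Igfbp7 (-0.96 to -0.36) and Igf2r (0.06 to 0.36) exclude 0 and these genes were called (red), and Igfbp6, whose interval is 0.05 to 0.56, was not called after adjustment.

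Among the ligands, Igf1 (ENSMUSG00000020053, GRCm38 chr10:87858265-87937042), the main circulating and locally made growth factor of the family, stood at 39.8, 30.4, 24.1 and 17.5 FPKM in vehicle libraries 1 to 4 and at 16.2, 17.8, 13.4 and 13.5 in YKL-05-099 libraries 1 to 4. Of the YKL-05-099 libraries 3 lay below every vehicle library, and the groups overlapped only because YKL-05-099 2 was just above vehicle 4. The mean was 27.9 ± 9.49 FPKM in vehicle and 15.2 ± 2.14 in YKL-05-099 (SD, n = 4 each). Igf1 fell by 0.78 on the log2 scale (SE 0.206, adjusted p = 0.0124, limma), and with no filter on low values the adjusted p was 0.0521. In bulk RNA, fewer cells of a type and less RNA per cell cannot be told apart.

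Macrophages also make Igf1, and the sum of their markers was lower after YKL-05-099 too. The 15 macrophage markers summed to 413.6, 539.2, 279.0 and 233.9 FPKM in vehicle libraries 1 to 4 and to 30.9, 90.4, 101.4 and 31.8 in YKL-05-099 libraries 1 to 4, and 9 of the 10 tested markers were called lower, Csf1r and Marco among them, which passed the filter only through the vehicle libraries. C1qa, a complement subunit made by tissue macrophages, stood at 15.6 to 37.2 FPKM after vehicle and at 0.453 to 6.97 after YKL-05-099. Vehicle 1 had the highest Igf1 and vehicle 2 the highest marker sum, and vehicle 4 was the lowest vehicle library in both. Among the YKL-05-099 libraries the orders differed: library 3 had the highest marker sum and the lowest Igf1. Library 1 had the lowest marker sum, with Igf1 at 16.2 FPKM, above libraries 3 and 4. Of 15 pan-leukocyte markers, 8 were tested and 6 were called lower. Among the 6, Itgb2 passed the filter only through the vehicle libraries. Over all tested genes 15.1% were called lower, the background for both marker counts. The pan-leukocyte markers summed to 43.3 to 86.2 FPKM in vehicle and 10.5 to 28.6 after YKL-05-099. The part of these cells in the Igf1 result was not tested. In the cultured library, 9 of the 15 macrophage markers, C1qa, C1qb, C1qc and Adgre1 among them, were listed at 0, while Igf1 stood at 2.13 FPKM. Of the 15 pan-leukocyte markers 8 were listed at 0 there, Ptprc, the gene of CD45, among them. Cytip, Ptpn6 and Itgb2 stood at 5.67, 4.23 and 1.00 FPKM in culture. The pan-leukocyte sum there was 12.7 FPKM, within the YKL-05-099 range.

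**Figure D3:**
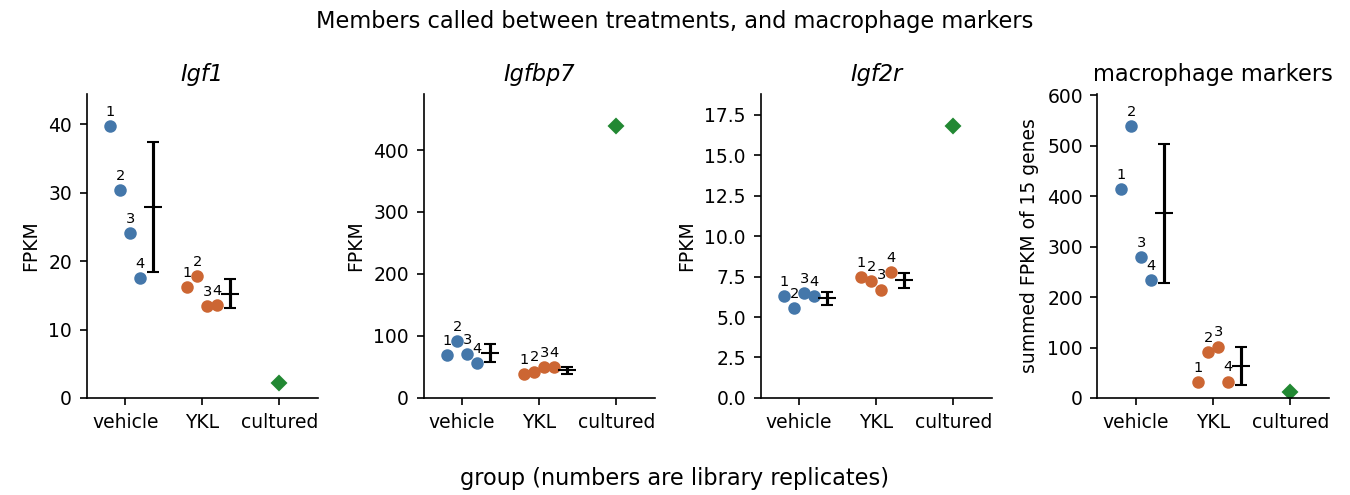
FPKM of Igf1, Igfbp7 and Igf2r and summed FPKM of 15 macrophage markers in each library, on linear axes from 0, with points numbered by replicate and black marks for the mean and SD of the 4 libraries of a group. Igf1, Igfbp7 and the macrophage sum were lower in YKL-05-099 libraries, and in culture Igfbp7 reached 438.6 FPKM while the macrophage sum was 12.4.

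Igf2 (chr7:142650766-142666816), the fetal growth factor of the imprinted H19 and Igf2 domain, was barely detected in the mouse libraries. It stood at 0.190, 0.141, 0.104 and 0.113 FPKM in vehicle, at 0.0840, 0.111, 0.118 and 0.0804 in YKL-05-099 and was listed at 0 in culture. The groups overlapped, and a gene at this level was not tested.

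Of the receptors, Igf1r (chr7:67952827-68233668), the signalling receptor of both ligands, was at 10.3, 9.06, 11.2 and 10.4 FPKM in vehicle and at 10.5, 11.4, 10.9 and 10.8 in YKL-05-099 libraries. The groups overlapped through vehicle 3, while the other 3 vehicle libraries were below every YKL-05-099 library. The log2 fold change was 0.09 with a 95% interval from -0.06 to 0.23 (SE 0.0641, adjusted p = 0.299, limma). The ratio of Igf1 to Igf1r was 1.68 to 3.85 in vehicle and 1.23 to 1.56 after YKL-05-099, so the ligand transcript was above its receptor's in each mouse library, by less after treatment. This ratio was described and not tested.

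Igf2r (chr17:12682406-12769664), the scavenging receptor, stood at 6.31, 5.56, 6.49 and 6.28 FPKM in vehicle and at 7.47, 7.20, 6.68 and 7.76 in YKL-05-099. All YKL-05-099 libraries were above all vehicle libraries, though by a narrow gap between vehicle 3 and YKL-05-099 3. The means were 6.16 ± 0.408 and 7.28 ± 0.458 FPKM (SD, n = 4 each), and Igf2r rose by 0.21 on the log2 scale (SE 0.0659, adjusted p = 0.0274, limma). The call did not hold in 7 of 18 alternatives: adjusted p was 0.0692 after median-of-ratios scaling, 0.215 after quantile normalization, 0.0542 with no filter, and between 0.0569 and 0.0718 without vehicle 2, YKL-05-099 1, YKL-05-099 2 or YKL-05-099 4. The antisense RNA Airn (chr17:12741311-12860122), which silences Igf2r on the paternal chromosome, overlaps the gene and was at 14.2 to 20.6 FPKM in vehicle and 8.47 to 13.3 in YKL-05-099. Airn fell by 0.51 (adjusted p = 0.0172, limma). The kit marks strand, but whether counting used it is not given in the sources used here, so the split of reads between Igf2r and Airn is uncertain.

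Promoter stretches of 4 genes are shown because they belong to members that the results turn on: Igf2r and Igfbp7, called between treatments with groups apart, and the neighbours Igfbp2 and Igfbp5, which were lower in culture by the most. They come from the RefSeq promoter windows of GRCm38.p6 and run 5′ to 3′ on the strand of the gene, from 250 bases before the start site to the base before it, and for Igfbp5 to 20 bases before it. Salt-inducible kinases restrain the coactivators of CREB, whose element CRE reads TGACGTCA with the half-site TGACG. Capitals mark the half-site, which reads CGTCA where it lies on the opposite strand.
Igf2r, chr17:12769707-12769956, minus strand: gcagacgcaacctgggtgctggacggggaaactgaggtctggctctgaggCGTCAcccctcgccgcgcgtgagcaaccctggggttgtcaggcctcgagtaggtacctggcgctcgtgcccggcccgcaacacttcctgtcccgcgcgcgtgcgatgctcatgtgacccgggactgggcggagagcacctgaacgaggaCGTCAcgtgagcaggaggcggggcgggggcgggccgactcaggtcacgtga
Igfbp7, chr5:77408046-77408295, minus strand: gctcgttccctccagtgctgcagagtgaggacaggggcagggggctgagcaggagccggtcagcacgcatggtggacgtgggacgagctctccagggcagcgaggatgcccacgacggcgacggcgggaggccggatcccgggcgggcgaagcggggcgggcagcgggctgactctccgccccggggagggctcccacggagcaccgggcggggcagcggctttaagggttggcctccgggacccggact
Igfbp2, chr1:72824230-72824479, plus strand: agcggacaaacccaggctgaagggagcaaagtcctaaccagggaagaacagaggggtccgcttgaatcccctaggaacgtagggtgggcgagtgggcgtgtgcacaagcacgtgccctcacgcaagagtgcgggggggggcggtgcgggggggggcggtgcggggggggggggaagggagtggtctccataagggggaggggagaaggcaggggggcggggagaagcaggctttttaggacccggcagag
Igfbp5, chr1:72874885-72875115, minus strand: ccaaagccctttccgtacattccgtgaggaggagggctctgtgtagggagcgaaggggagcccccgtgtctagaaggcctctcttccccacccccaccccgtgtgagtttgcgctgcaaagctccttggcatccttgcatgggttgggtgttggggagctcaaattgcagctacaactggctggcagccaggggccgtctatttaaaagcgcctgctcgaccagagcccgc

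The 10 members matched 14 windows of 300 bases, each reaching 50 bases past a start site. The full CRE was in 0 of the 14 windows and in 1.79% of all 32851 windows. The half-site, counted on both strands and also where it lies within a full CRE, was in 3 of the 14 windows, of Igf2 and Igf2r, and in 20.8% of all windows. The Igf2r window held the half-site with first bases at -200, -51 and -3 from the start, the last of them running past the printed stretch. Igf2r (70.7% G and C, 34 CpG) and Igfbp7 (73.3%, 33 CpG) had CpG-rich windows, against medians of 52.7% and 7 CpG over all windows, while the Igfbp2 window above had 67.0% and 18 CpG and the Igfbp5 window 56.3% and 10. These matches describe letters only.

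Of the binding proteins, Igfbp7 (chr5:77349240-77408041), which binds IGFs weakly and is deposited in the matrix, was at 68.5, 91.4, 71.0 and 56.3 FPKM in vehicle and at 38.2, 42.2, 49.1 and 49.1 in YKL-05-099 libraries. Every YKL-05-099 library was below every vehicle library. The means were 71.8 ± 14.5 and 44.7 ± 5.38 FPKM (SD, n = 4 each), and Igfbp7 fell by 0.66 (SE 0.133, adjusted p = 0.0034, limma). It stayed called in 18 of 18 alternative settings. Endothelial cells are known for high Igfbp7. The 8 endothelial markers summed to 5.83 to 8.98 FPKM in vehicle and 5.97 to 7.65 after YKL-05-099. In each mouse library 2 or 3 of them reached 1 FPKM, as did 2 in culture, where the 8 summed to 4.39 FPKM. Cdh5, another of the 8, was listed at 0 in all libraries but vehicle 3, where it was 0.00632. Of the 12 fibroblast markers 6 were tested and 5 called lower, against 15.1% of all tested genes. All 12 summed to 657.0 to 709.5 FPKM in vehicle and 556.1 to 634.9 in YKL-05-099. The part of endothelial cells or fibroblasts in the Igfbp7 result was not tested.

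Igfbp6 (chr15:102144362-102149511), which prefers IGF2 as its ligand, was the most abundant member in the mice. It stood at 466.7, 451.5, 536.2 and 679.7 FPKM in vehicle and at 621.6, 633.8, 664.7 and 680.6 in YKL-05-099 libraries. Vehicle 4 reached the level of the YKL-05-099 libraries, and the other 3 vehicle libraries were below all of them. The means were 533.5 ± 104.2 and 650.2 ± 27.2 FPKM (SD, n = 4 each). The log2 fold change was 0.30 (SE 0.114, adjusted p = 0.0549, limma), a call reached in 4 of 18 alternatives, and it was 0.43 (adjusted p = 0.000933) without vehicle 4. Quantile normalization and TPM scaling gave adjusted p-values of 0.0208 and 0.0419 (limma).

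Igfbp2 (chr1:72824503-72852474), a binding protein of fetal tissues and many tumors, stood at 231.9, 268.5, 227.1 and 324.8 FPKM in vehicle and at 288.6, 252.9, 246.0 and 249.9 in YKL-05-099 libraries. The treated libraries lay inside the vehicle range. The log2 fold change was -0.01 with a 95% interval from -0.25 to 0.23 (SE 0.107, adjusted p = 0.956, limma), and its sign turned with TPM scaling and without several single libraries.

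Igfbp4 (chr11:99041244-99054392), the inhibitory binding protein that the protease PAPP-A cuts, was at 112.8, 103.8, 95.8 and 186.0 FPKM in vehicle and at 116.7, 118.2, 104.4 and 121.5 in YKL-05-099. Vehicle 4 stood well above the other 7 mouse libraries. The log2 fold change was -0.06 with a 95% interval from -0.45 to 0.33 (SE 0.174, adjusted p = 0.791, limma), and without vehicle 4 it was 0.15 (adjusted p = 0.108). Pappa itself was at 9.90 ± 0.223 FPKM in vehicle and 8.36 ± 1.14 in YKL-05-099 (SD, n = 4 each; log2 fold change -0.23, adjusted p = 0.0511, limma).

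Igfbp5 (chr1:72857932-72874884), the most conserved binding protein and one held in the matrix, was at 135.5, 115.5, 102.7 and 117.1 FPKM in vehicle and at 125.3, 102.5, 86.6 and 104.3 in YKL-05-099. The ranges overlapped over most of their length. The log2 fold change was -0.17 with a 95% interval from -0.42 to 0.07 (SE 0.110, adjusted p = 0.231, limma).

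Igfbp3 (chr11:7206086-7213923), the chief carrier of IGFs in serum, was near 0 in these cells. It stood at 0.139, 0.0831, 0.0279 and 0.0461 FPKM in vehicle, at 0.0212, 0.0464 and 0.0348 in YKL-05-099 1 to 3, and was listed at 0 in YKL-05-099 4 and in culture. It was not tested.

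Together the 6 binding protein members summed to between 1015.5 and 1364 FPKM in vehicle and between 1149.7 and 1205.4 in YKL-05-099 libraries, with the highest sum in vehicle 4. Igfbp6 supplied 43.8% to 51.9% of that sum in vehicle and 52.2% to 57.8% after YKL-05-099, which did not overlap. Igfbp7 supplied 4.13% to 8.86% and 3.21% to 4.27%, which overlapped through vehicle 4. The shares were not tested.

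**Figure D4:**
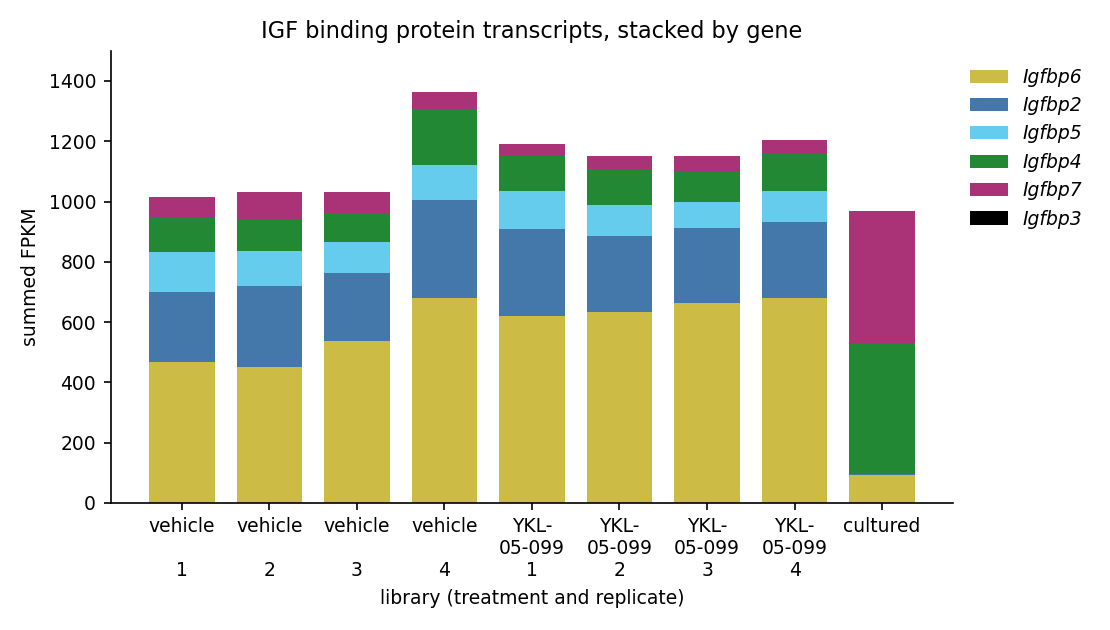
FPKM of the 6 binding protein members stacked in each library (bars from 0, 1 bar per library). Igfbp6 and Igfbp2 make up most of every mouse bar, whereas Igfbp7 (45.2%) and Igfbp4 (44.9%) make up most of the cultured bar, at a sum of 969.5 FPKM. Igfbp3 is too low to be seen.

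The cultured library asked how the family looked in the same tumor cells without a host. With 1 library there is no test and no replicate check. A gene was taken as apart when culture lay beyond the highest or lowest of the 8 mouse libraries and differed from the vehicle mean by 2 log2 units or more. To enter, it had to reach 1 FPKM in 4 mouse libraries or in culture. Of the 8 members that entered, Igfbp7 was apart upwards and Igf1, Igfbp2, Igfbp5 and Igfbp6 downwards, whereas 3 were within the rule. Igfbp5, at 0.833 FPKM in culture, entered only through the mouse libraries, so it could be apart only downwards. All 8 lay outside the mouse range, as did 73.6% of all genes that entered. By the rule, 2.08% of the 12296 genes that entered were apart upwards and 3.06% downwards. The median difference from vehicle was -1.11 log2 units for the 8 members and 0.03 for all genes that entered.

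Igfbp2 was at 2.19 FPKM in culture, against 227.1 to 324.8 in vehicle, so the vehicle mean was 119.9-fold the cultured level. Igfbp5 was at 0.833 FPKM in culture, and its vehicle mean was 141.3-fold that level. These genes are neighbours on chromosome 1 with their 3′ ends facing each other, 5457 bases apart, and 0 genes of the table lie between them. Their ratio, Igfbp2 over Igfbp5, was 1.71 to 2.84 in the mouse libraries and 2.63 in culture, so both were lower by a like factor.

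Igf1 was at 2.13 FPKM in culture, below every mouse library, and the vehicle mean was 13.1-fold higher. The ratio of Igf1 to Igf1r was 0.171 in culture, the reverse of the order in the mice. Igfbp6 was at 92.6 FPKM, and the vehicle mean was 5.76-fold higher. By the same rule, 7 of the 10 macrophage markers that entered were apart downwards, against 3.06% of all genes that entered. Only 2 of the 15 macrophage markers reached 1 FPKM in culture, so most entered only through the mouse libraries. Those could be apart only downwards. The 12 fibroblast markers summed to 338.2 FPKM in culture. The part of host cells in these differences was not tested.

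Igfbp7 was at 438.6 FPKM in culture, 6.11-fold the vehicle mean and 9.82-fold the YKL-05-099 mean, and above 98.9% of the genes that reached an FPKM of 1 there. Igfbp4 was at 435.3 FPKM, 3.49-fold the vehicle mean, a difference of 1.85 log2 units that is just within the rule and passes it without vehicle 4. Igf2r was at 16.8 FPKM, 2.73-fold the vehicle mean, and Igf1r at 12.5, 1.22-fold. Receptor RNA was thus kept in culture while Igf1 was low, and Igf2r passed Igf1r, with a ratio of Igf1r to Igf2r of 0.744 against 1.40 to 1.73 in the mice.

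The rest of the pathway is given by lists written from textbook knowledge, each read against the 28.0% of tested genes called higher and the 15.1% called lower. Of the other binding proteins and related secreted proteins 3 of 8 were tested, 0 were called higher and 1 lower (median log2 fold change 0.03). Ccn2, the matricellular growth factor listed as Ctgf in the table, fell from 791.4 ± 123.8 to 283.5 ± 113.4 FPKM (SD, n = 4 each; log2 fold change -1.59, adjusted p = 0.00324, limma). Ccn1 (Cyr61) and the protease Htra1 were not called, with log2 fold changes of 0.14 and 0.03. Igfbp1 was listed at 0 in all libraries but YKL-05-099 4, and Igfals, the partner of serum IGF complexes, averaged 0.0846 FPKM in vehicle and 0.0447 in YKL-05-099.

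Of 15 genes of the insulin receptor and receptor adaptors 9 were tested, with 1 called higher and 2 lower (median 0.04). Insr, the insulin receptor, which also pairs with IGF1R, was at 11.4, 10.8, 11.5 and 11.2 FPKM in vehicle and at 15.4, 17.8, 15.2 and 14.5 in YKL-05-099. The groups were well apart, and Insr rose by 0.45 on the log2 scale (SE 0.0637, adjusted p = 0.000516, limma). The adaptor substrates Irs1 and Irs2, which dock PI3K, were not called, with log2 fold changes of 0.03 and 0.05. The phosphatase Ptpn11 (-0.16, adjusted p = 0.013) and the adaptor Gab1 (-0.18, adjusted p = 0.0171) fell, while Sh2b1 (0.08) and Shc1 (0.06) were not called (limma). Grb10, an imprinted adaptor that dampens both receptors, was too low to be tested, at 2.41, 1.73, 2.26 and 0.883 FPKM in vehicle and 0.150, 0.179, 0.344 and 0.256 in YKL-05-099, groups that do not overlap.

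In the PI3K, AKT and TOR list 21 of 22 genes were tested, with 6 called higher and 6 lower (median 0.05). The kinase Akt2 rose by 0.49 (87.1 ± 1.90 to 122.7 ± 3.14 FPKM, SD, n = 4 each; adjusted p = 1.9e-05, limma). The kinase Akt1 fell by 0.27 (adjusted p = 0.00142). Tsc1, a brake on TOR, rose by 0.55 (adjusted p = 0.000283), and the PI3K regulatory subunit gene Pik3r1 fell by 0.65 (adjusted p = 0.000253), as did the lipid phosphatase gene Inppl1 by 0.38 (adjusted p = 0.00216, limma). The list thus held opposite changes between paralogs, with its median at that of all genes.

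FoxO factors, which AKT keeps out of the nucleus, and their targets gave 6 genes called higher and 3 lower of 14 tested (median -0.0029). Fbxo32, a ubiquitin ligase gene, rose from 3.93 ± 0.366 to 9.40 ± 0.994 FPKM (SD, n = 4 each; log2 fold change 1.07, adjusted p = 1.9e-05, limma). The cyclin gene Ccng2 rose by 0.69 (adjusted p = 0.000174) and the cell cycle inhibitor Cdkn1b by 0.29 (adjusted p = 0.000714). Txnip, a regulator of glucose uptake, fell by 0.75 (adjusted p = 0.000828) and Foxo6 by 0.43 (adjusted p = 0.000679, limma).

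Of 16 proteases that cut binding proteins and their inhibitors 8 were tested, with 1 called higher and 2 lower (median -0.13). The membrane protease gene Mmp14 fell from 41.4 ± 6.77 to 22.4 ± 0.570 FPKM (SD, n = 4 each; log2 fold change -0.84, adjusted p = 0.000221, limma). The plasminogen activator gene Plau rose by 0.52 (adjusted p = 0.0097, limma), and Adam9 was not called (0.10). Stc1 and Stc2, inhibitors of PAPP-A, averaged 0.00874 and 0.0132 FPKM in vehicle.

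The list of IGF2 mRNA-binding proteins and genes of imprinted loci had 7 of 17 genes tested, with 1 called higher and 4 lower (median -0.51). Igf2bp2, which binds Igf2 RNA, fell by 0.55 (adjusted p = 0.019) and the chromatin protein gene Hmga1 by 0.53 (adjusted p = 0.00211, limma). For Igf2bp2 the groups overlapped, since vehicle 4, at 2.75 FPKM, lay within the YKL-05-099 range of 2.61 to 2.85. The imprinted noncoding RNA Meg3, at 1.28 to 2.65 FPKM after vehicle and 0.257 to 0.609 after YKL-05-099, passed the filter only through the vehicle libraries, so its place among the 4 lower genes supports nothing about the list. Peg3, a paternally expressed imprinted gene, rose by 0.65 (adjusted p = 0.0024). Igf2bp1 was not called (-0.15), and Igf2bp3 averaged 0.0363 FPKM in vehicle. H19, the noncoding RNA beside Igf2, was not tested, at 1.05, 1.07, 1.50 and 0.223 FPKM in vehicle and at most 0.106 in YKL-05-099, groups that do not overlap.

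Mannose 6-phosphate sorting, the route that Igf2r shares with lysosomal enzymes, had all 15 genes tested, with 6 called higher and 1 lower (median 0.11). The adaptor gene Gga2 rose from 28.2 ± 1.78 to 46.3 ± 1.32 FPKM (SD, n = 4 each; log2 fold change 0.70, adjusted p = 1.4e-05, limma). Gnptg and Nagpa, which act in making the tag, rose by 0.40 and 0.63 (adjusted p = 0.000415 and 0.000448), and Vps26a of the retromer by 0.20 (adjusted p = 0.00674, limma). Gnptab, which also acts in making the tag and was named after its values were seen, was not called (-0.02, adjusted p = 0.774, limma). M6pr, the smaller mannose 6-phosphate receptor, rose by 0.12 (adjusted p = 0.0405, limma).

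**Figure D5:**
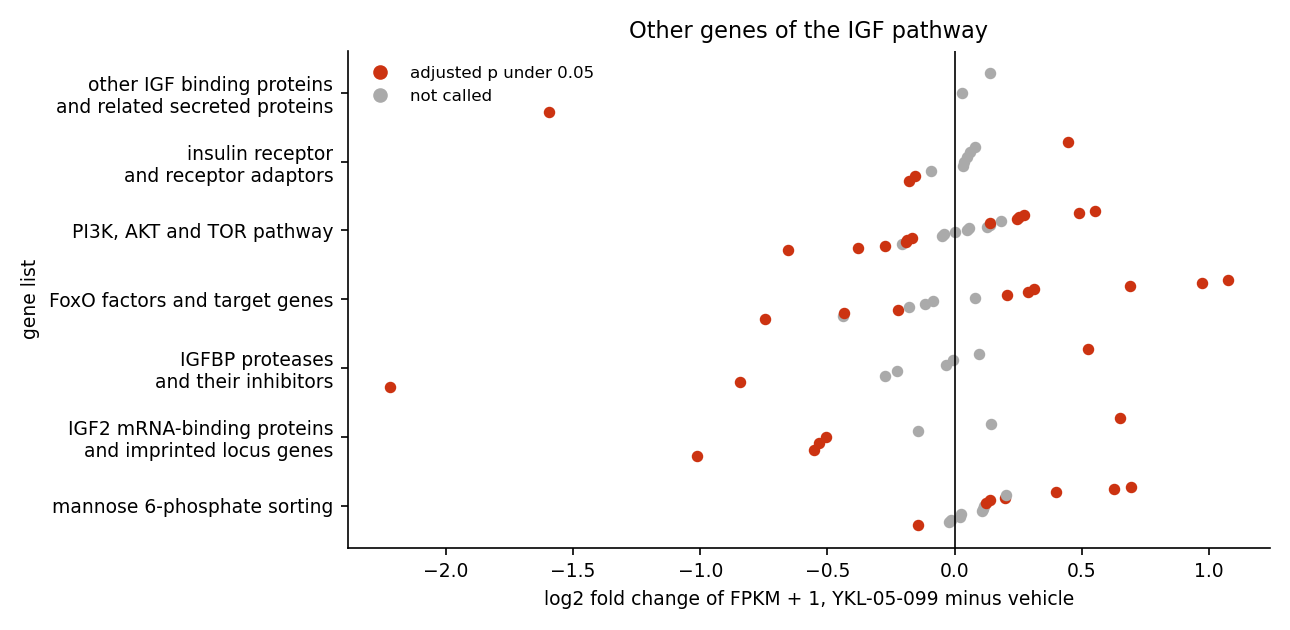
Difference between YKL-05-099 and vehicle (log2 of FPKM + 1) for each tested gene of the 7 pathway lists, 1 point per gene, red where limma's adjusted p was under 0.05. Called genes lie on both sides of 0 in 6 of the lists, and the largest rise is Fbxo32 at 1.07.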

How the data were processed

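RNA of 9 libraries was measured: 4 vehicle, 4 YKL-05-099 and 1 cultured, grouped by the sample titles. The deposited values are FPKM per gene, as computed by the authors, with a status per value, per the file headers. Per the submitters' processing notes, bcl2fastq 2.19 and the GRCm38 build were used. For the aligner, the quantification program and its strand setting: not given in the sources used here. Of 48302 table entries, 65 shared a gene identifier with a longer locus and 7 genes had a failed estimate, and these were left out. The authors' FPKM hold no counts, and no whole reads came out of them. By the size of the lowest values, depth was near 23000000 to 35000000 fragments per library, too rough for an interval per gene, and an FPKM of exactly 0 is given as listed at 0.

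Treatment was tested with limma 3.58.1 (R 4.3.3) on log2(FPKM + 1), with a mean-variance trend and without pairing or rescaling, for genes that reached 1 FPKM in 4 or more of the 8 mouse libraries. P-values are two-sided and Benjamini-Hochberg adjusted over all 11788 tested genes, called under 0.05. This scale understates changes of low genes. The procedure was tested on simulated data. Culture was compared by size only. Coordinates are the table's, counted from 1, and promoters are RefSeq windows of GRCm38.p6. Named genes are all members, a set list of 14 pathway genes, and up to 5 genes with the smallest p of each pathway list, except a few that are not reported here. Members and lists were chosen with earlier results of these data known. Alternatives were other pseudocounts (0.1 and 0.5), filters, scalings, limma settings, a replicate block and each library left out.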

Additional observations from a re-analysis of the deposited data

Results flagged for a closer look

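Each member's FPKM was checked in each group of 4 libraries for a value far from the others, by the gap to its nearest neighbour over the range (Dixon's ratio, against its 95% critical value). Of 20 groups looked at, 1 passed. Igfbp2 in YKL-05-099 1 stood at 288.6 FPKM, above 246.0 to 252.9 in the other 3 YKL-05-099 libraries (ratio 0.836). Chance passes about 1 in 20 groups at this level, and the value lies inside the vehicle range.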

How the results depend on the processing

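Igfbp7 was called lower in 18 of 18 alternatives (log2 fold change -0.77 to -0.54) and Igf1 in 17 of 18, all but no filter on low values (-0.78, adjusted p = 0.0521, limma). Igf2r was called in 11 of 18: no filter gave 0.21 (adjusted p = 0.0542), median-of-ratios scaling 0.16 (0.0692) and quantile normalization 0.10 (0.215), and leaving out 1 library gave 0.17 to 0.25. Igfbp6 became called with quantile normalization (0.39), TPM scaling (0.32) and without vehicle 4 (0.43), with a range of 0.23 to 0.43 over libraries left out. Igfbp2 turned sign with TPM scaling (0.0061) and ranged from -0.0738 to 0.0976 over libraries left out, Igfbp4 from -0.17 to 0.15, Igfbp5 from -0.26 to -0.0865 and Igf1r from 0.03 to 0.13, with neither of the last pair called. With no filter, 1 member was called, among 24793 genes tested in place of 11788.

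With the replicate number as a block, Igfbp5 (-0.17, adjusted p = 0.0205) and Igfbp6 (0.30, adjusted p = 0.0302) became called, which made 5 members called (limma). Deviations of same-numbered libraries correlated at -0.018, 0.133, -0.047 and 0.172, and not every library correlated best with its own number, so the numbers are not taken to pair the libraries. The count of members apart in culture was 5 in all alternatives but 1, being 6 without vehicle 4, and the count of pathway genes called stayed between 32 and 44, against 40. Igf2, Igfbp3, H19 and Grb10 did not reach 1 FPKM in 4 mouse libraries and did not enter the main test. With no filter these genes were tested, and neither Igf2 nor Igfbp3 was called.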

Other observations

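In the cultured library, 3 of 8 genes of the IGF2 mRNA-binding and imprinted list that entered were apart upwards and 1 downwards, against 2.08% and 3.06% of all genes that entered, with no test since there was 1 library. Hmga2, a fetal chromatin protein gene that acts upstream of Igf2bp2, entered only through culture, so that its being apart upwards was fixed by entry, at 12.7 FPKM in culture and at most 0.101 in the mouse libraries. Igf2bp2 was at 23.0 FPKM in culture, against at most 5.89 in the mouse libraries, and Hmga1 at 61.0 against a vehicle mean of 12.1. Igf2 itself was listed at 0 in that library. Among the proteases and inhibitors, Plat, the tissue plasminogen activator, was apart downwards (6.74 FPKM, against 81.7 to 92.6 in vehicle).

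Ins2, an insulin gene close to Igf2 on chromosome 7, was named after its values were seen. Its locus as listed is wide (chr7:142678656-142743381), and which transcripts within it gave the reads was not tested. It stood at 22.5, 14.6, 15.2 and 18.1 FPKM in vehicle and at 15.01, 21.5, 22.9 and 18.6 in YKL-05-099, and was listed at 0 in culture. The mouse groups overlapped over most of their range, with a log2 fold change of 0.14 (adjusted p = 0.466, limma), while Igf2 was at most 0.190 FPKM in the same libraries.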
